A study of Homo sapiens with 3 samples.

Results

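FOXM1, a forkhead transcription factor that drives genes of the late cell cycle, does much of its work on chromatin that other complexes already hold. The MuvB core, made of LIN9, LIN37, LIN52, LIN54 and RBBP4, is the platform. In resting cells it joins a pocket protein (RBL1, also called p107, or RBL2, also called p130) with E2F and DP partners to form the DREAM complex, which silences cell cycle genes, while the related pocket protein RB1 acts beside it. In cycling cells the same core leaves the pocket proteins and takes up MYBL2 (B-MYB) and then FOXM1, and it touches DNA through LIN54 at the cell cycle genes homology region, or CHR. The 9 genes for these partners and opponents of FOXM1 are described here as sites of anti-FOXM1 peaks.

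The cells were Huh7, a cultured line from a human hepatocellular carcinoma, and none of them was treated. ChIP-seq, in which an antibody enriches the DNA that a protein occupies before sequencing, gave 2 libraries with the G-5 antibody against FOXM1, which their titles number as replicates 2 and 3. The third of the 3 samples was 1 input library without antibody, whose peaks were not analysed here. Separate cultures for the ChIP replicates are not stated in the labels, and no library was made with another antibody or from cells lacking FOXM1, so the specificity of the peaks was not tested. Peak lists hold no expression values, and the cell line was not checked against markers.

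Members were chosen by name. A peak was counted for a gene where its summit lay inside the gene or within 5 kb of it in RefSeq GRCh38. All 9 genes matched, of 19974 protein-coding genes on chromosomes 1 to 22 and X. They took 9 of the 8271 peaks of replicate 2 and 10 of the 11502 peaks of replicate 3. A peak called in both lists, overlapping by at least 1 bp, is called shared. Fold enrichment is the authors' own linear ratio of ChIP signal at the summit to local background, and −log10 q is the authors' adjusted p on that scale, with lowest values of 1.32 in replicate 2 and 1.31 in replicate 3. A gene without a peak therefore only failed to pass that threshold.

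Of the 9 genes, 5 had a shared peak: LIN9, LIN54, RB1, RBL1 and MYBL2. RBBP4 had a peak in replicate 3 alone, LIN37 had peaks of both libraries that did not overlap, and LIN52 and RBL2 had none. The count was 6 of 9 in replicate 2, against 33.3% of all protein-coding genes, and 7 of 9 in replicate 3, against 41.3%. For shared peaks it was 5 of 9 (55.6%), against 25.5% (exact Clopper-Pearson 95% interval 24.9 to 26.1). The members are long genes with a median length of 78619 bp, against 24170.5 bp for all protein-coding genes, and long genes catch more peaks. Among genes of 20 to 100 kb, where 6 members fall, 4 of the 6 had a shared peak, against 27.2% of such genes. Of the 2 members of 100 kb or more 1 had one, against 31.9%, and the only member under 20 kb had none, against 21.7%. With 9 genes chosen by name, these shares are a description and no test was run on them.

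The shared peaks lay mostly at the starts of the genes. In 4 of the 5 genes with one (LIN9, LIN54, RB1 and MYBL2) both summits were within 1 kb of the annotated 5′ end, and RBL1 was the exception. Of all genes with a shared peak and a known strand, 70.9% had one within 1 kb of the 5′ end. Over the 15813 protein-coding genes with a known strand, 18.4% had a shared peak within 1 kb of the 5′ end and 1.21% within 1 kb of the 3′ end, so a place at the start was also the usual one over all genes.

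**Figure D1:**
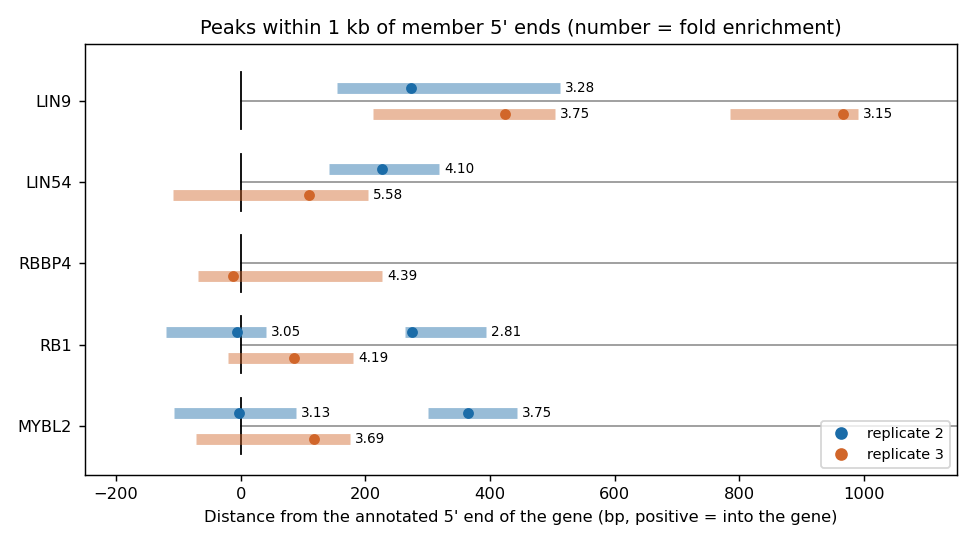
Peaks of replicate 2 (blue, upper bar of each gene) and replicate 3 (orange, lower bar) within 1 kb of the annotated 5′ ends of LIN9, LIN54, RBBP4, RB1 and MYBL2, by distance in bp from that end. Bars span the peak, dots mark the summit and numbers give the fold enrichment; RBBP4 has a replicate 3 peak only, and the peaks of RBL1 and LIN37 and 2 further RB1 peaks lie outside the axis.

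LIN9, a scaffold subunit of the MuvB core, spans GRCh38 chromosome 1, 226231149 to 226309767, on the minus strand. Replicate 2 had 1 peak there (226309255 to 226309612), with fold 3.28 and −log10 q 3.64. Replicate 3 had an overlapping peak (226309262 to 226309555) with fold 3.75 and −log10 q 4.81. These summits lay 273 bp and 424 bp inside the gene, 151 bp apart. A second replicate 3 peak, 966 bp inside the gene, had fold 3.15 and −log10 q 2.71 and no partner in replicate 2. RefSeq lists 3 starts for LIN9, and both shared peaks spanned the start at 226309503, not the outermost at 226309767. The replicate 2 summit was 9 bp past the start at 226309503 and the replicate 3 summit 160 bp past it, between this start and the innermost one at 226309164.

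Promoter windows, 250 bases before to 50 after a listed start, are shown for starts of LIN9, RBBP4 and MYBL2 that hold a summit of either library, with LIN54 and RBL2 for comparison, the first because its peak lies upstream of its listed starts and the second because it has no peak. Sequences are from RefSeq (GRCh38.p14), 5′ to 3′ in the direction of the gene. Capitals mark matches on either strand to the CHR letters TTTGAA or TTCGAA, to the E2F site forms TTCCCGC and TTGGCGC, or to the forkhead core TAAACA. The windows are LIN9 at chr1:226309454-226309753 (minus strand, replicate 2 summit) and at chr1:226309115-226309414 (minus strand, replicate 3 summit), RBBP4 at chr1:32650958-32651257 (plus strand, replicate 3 summit), MYBL2 at chr20:43666864-43667163 (plus strand, replicate 2 summit), LIN54 at chr4:83010774-83011073 (minus strand, no summit) and RBL2 at chr16:53434221-53434520 (plus strand, no summit). A second RBBP4 window, at the start 32651356, also holds the replicate 3 summit, overlaps the first and is not shown. RB1 has 1 listed start, at 48476450 and deep inside the gene. The letters at its 5′ end, where its shared peak lay, were therefore not searched.
LIN9, window of the replicate 2 summit: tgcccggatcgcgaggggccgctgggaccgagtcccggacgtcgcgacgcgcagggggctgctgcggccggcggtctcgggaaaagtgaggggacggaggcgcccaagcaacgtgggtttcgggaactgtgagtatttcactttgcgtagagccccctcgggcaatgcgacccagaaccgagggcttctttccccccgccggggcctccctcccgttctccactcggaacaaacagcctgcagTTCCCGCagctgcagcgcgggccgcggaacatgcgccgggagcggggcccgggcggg
LIN9, window of the replicate 3 summit: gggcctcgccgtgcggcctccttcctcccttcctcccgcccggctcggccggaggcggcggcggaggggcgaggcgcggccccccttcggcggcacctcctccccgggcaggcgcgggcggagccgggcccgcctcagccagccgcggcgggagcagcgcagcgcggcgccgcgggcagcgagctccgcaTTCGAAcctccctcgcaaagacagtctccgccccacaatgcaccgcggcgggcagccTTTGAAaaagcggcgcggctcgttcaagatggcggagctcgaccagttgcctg
RBBP4: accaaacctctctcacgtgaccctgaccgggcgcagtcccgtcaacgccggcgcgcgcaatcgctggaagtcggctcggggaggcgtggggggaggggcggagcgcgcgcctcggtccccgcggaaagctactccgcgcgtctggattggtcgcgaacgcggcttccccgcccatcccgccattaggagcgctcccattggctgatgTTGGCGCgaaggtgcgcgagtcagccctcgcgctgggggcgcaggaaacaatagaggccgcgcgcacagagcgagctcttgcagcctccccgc
MYBL2: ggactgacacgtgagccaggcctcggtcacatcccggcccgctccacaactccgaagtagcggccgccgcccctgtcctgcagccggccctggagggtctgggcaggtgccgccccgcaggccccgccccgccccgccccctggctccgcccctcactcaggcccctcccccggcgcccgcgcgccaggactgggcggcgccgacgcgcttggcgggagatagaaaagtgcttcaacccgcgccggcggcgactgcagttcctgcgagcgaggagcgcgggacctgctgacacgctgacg
LIN54: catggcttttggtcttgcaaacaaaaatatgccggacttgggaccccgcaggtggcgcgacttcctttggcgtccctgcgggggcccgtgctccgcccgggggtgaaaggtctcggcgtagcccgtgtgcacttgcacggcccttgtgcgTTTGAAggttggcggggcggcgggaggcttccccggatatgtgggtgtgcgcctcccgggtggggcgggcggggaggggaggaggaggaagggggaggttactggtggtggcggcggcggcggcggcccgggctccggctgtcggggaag
RBL2: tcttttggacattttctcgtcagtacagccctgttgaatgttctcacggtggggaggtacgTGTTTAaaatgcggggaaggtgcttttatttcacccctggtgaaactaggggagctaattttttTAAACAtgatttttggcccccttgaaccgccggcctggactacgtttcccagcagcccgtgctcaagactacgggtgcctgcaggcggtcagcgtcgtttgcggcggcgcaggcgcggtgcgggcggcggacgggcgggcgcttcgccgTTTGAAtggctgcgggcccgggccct

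The window of LIN9 with the replicate 3 summit held both CHR forms, TTTGAA from 3 bases before the start and TTCGAA from 60 before, while the one with the replicate 2 summit held the E2F form TTCCCGC from 7 before. Both CHR matches lay between the shared peaks and the second replicate 3 peak of LIN9, outside every called peak. The E2F form lay inside the shared peaks of both libraries. RBBP4 held TTGGCGC from 43 bases before its start. MYBL2 held none of the capitalised motifs but 7 GC boxes (GGGCGG on either strand), at a GC content of 75.3%. The E2F search used only the 2 exact forms. Close letters, such as TTGGCGG in the MYBL2 and LIN54 windows, were not counted, so E2F-like sites there are not excluded. LIN54 had TTTGAA in its window, and RBL2, which had no peak, held TTTGAA and 2 forkhead cores, the most of those shown. Over all 35116 promoter windows, TTTGAA occurred in 15.2%, TTCGAA in 1.45%, TTCCCGC in 6.55%, TTGGCGC in 3.04%, TAAACA in 12.3% and GGGCGG in 44.95%.

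Among the 1217 windows with summits of both libraries, TTTGAA occurred in 3.70%, TTCGAA in 1.15% and TAAACA in 2.96%, against 16.7%, 1.46% and 13.7% of the 30733 windows with no summit. The E2F form TTCCCGC occurred in 11.2% against 5.76%, the form TTGGCGC in 5.09% against 2.76%, and GGGCGG in 92.8% against 38.6%. The median GC content of these windows was 75.3% with summits of both libraries and 56% with none, and its part in the motif shares was not tested. No member window held summits of both libraries, so none is among the 1217. A match describes letters in a window and not a binding site.

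LIN37, a MuvB subunit needed for DREAM to repress, is the shortest member (chromosome 19, 35748576 to 35754519, plus strand). Its 2 peaks both lay past its 3′ end. The replicate 2 summit was 3676 bp past it (35758077 to 35758202, fold 3.10, −log10 q 2.87), within 1 kb of PROSER3. The replicate 3 summit was 2446 bp past it (35756846 to 35757041, fold 4.75, −log10 q 5.60), within 1 kb of HSPB6, a small heat shock protein gene. LIN37 thus counts through the 5 kb margin only, and no peak lay at its start. Of all protein-coding genes 2.97% likewise had peaks of both libraries in this range with none overlapping.

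LIN52, the subunit that binds pocket proteins once the kinase DYRK1A has phosphorylated it, had no peak (chromosome 14, 74084956 to 74201493, plus strand). The nearest summits were 65768 bp outside the gene in replicate 2 and 65846 bp in replicate 3, at the neighbouring genes ENTPD5 and BBOF1. Its promoter window held 1 E2F form, TTCCCGC.

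LIN54, the subunit that reads the CHR, carried the strongest shared peak of the set by the lower fold of the libraries. The gene spans chromosome 4, 82924603 to 83012941, on the minus strand. Fold was 4.10 in replicate 2 (83012622 to 83012799, −log10 q 3.51) and 5.58 in replicate 3 (83012736 to 83013050, −log10 q 6.91). The replicate 3 value stood above 97.6% of that library's peaks, whereas the replicate 2 value stood above 67.2%. Both rested on low backgrounds of 3.18 and 3.07 fragments, below those of most peaks, with 19 and 25 fragments at the summit. Scaled to the control, as the backgrounds are, these counts were 16.1 and 21.7. The summits lay 227 bp and 110 bp inside the outer 5′ end, but 1880 bp and 1997 bp before the nearer of the 2 starts in the promoter table.

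RBBP4, a histone-binding WD40 protein that MuvB shares with several chromatin complexes, had a peak in replicate 3 alone (chromosome 1, 32651140 to 32651435). Fold was 4.39 and −log10 q was 6.10, above 84.9% of the library's peaks. It rested on 31 fragments (26.9 after scaling to the control) over a background of 5.37. Its summit was 12 bp before the start of RBBP4 (32651208, plus strand) and also within 1 kb of ZBTB8OS, so the peak cannot be given to either gene alone. Replicate 2 had no peak in this range, and its nearest was 55655 bp past the gene.

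RB1, the retinoblastoma tumour suppressor and the longest member, spans chromosome 13, 48303751 to 48481890, on the plus strand. At its 5′ end replicate 2 had a peak (48303631 to 48303791) with fold 3.05 and −log10 q 2.40, its summit 6 bp outside the gene. Replicate 3 had an overlapping peak (48303731 to 48303932) with fold 4.19 and −log10 q 5.73, its summit 85 bp inside. The lncRNA gene RB1-DT lies within 1 kb of these summits. RB1 was the only member whose shared summits were within 100 bp, at 91 bp.

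The other RB1 peaks were each in 1 library. Replicate 2 had a second one 275 bp inside the gene, with fold 2.81 and −log10 q 1.75, the lowest of any member peak. Replicate 3 had a peak 14962 bp inside (fold 4.66, −log10 q 4.58) at the pseudogene PPP1R26P1, where unique mapping was not examined. It had another 155991 bp inside (fold 4.65, −log10 q 5.42), away from every other annotated gene by more than 1 kb.

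RBL1, the pocket protein p107, had its peaks away from its start. The gene spans chromosome 20, 36996349 to 37095997, on the minus strand, and its peaks lay inside the gene near its 3′ end. Replicate 2 had 2 peaks there, at 4506 bp (fold 3.86, −log10 q 3.16) and 4865 bp (fold 4.27, −log10 q 3.75) from that end. Replicate 3 had 1 at 4705 bp, between them, with fold 4.09 and −log10 q 3.44. Its overlap with the replicate 2 peak at 4506 bp was 4 bp, with summits 199 bp apart. It did not overlap the one at 4865 bp, whose summit was closer. No peak was called at the 5′ end, where the promoter window held the E2F form TTGGCGC from 15 bases before the start.

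RBL2, the pocket protein p130 that predominates in the DREAM of resting cells, had no peak (chromosome 16, 53434471 to 53491648, plus strand). The nearest lay at AKTIP, with a fold of 5.35 at 11477 bp past the gene in replicate 2 and of 2.87 at 11220 bp past it in replicate 3. Of the 3 pocket protein genes, RB1 thus had its shared peak at the start, RBL1 near the 3′ end and RBL2 nowhere within 5 kb.

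MYBL2, the MYB factor that takes the pocket proteins' place on MuvB and is itself a well known E2F target, spans chromosome 20, 43667114 to 43716482, on the plus strand. Replicate 2 had a peak centred on its start (43667007 to 43667203), with fold 3.13 and −log10 q 3.69 and the summit 2 bp outside the gene. Replicate 3 had an overlapping peak (43667043 to 43667289) with fold 3.69 and −log10 q 4.45 and the summit 118 bp inside. A second replicate 2 peak, 364 bp inside, had fold 3.75 and −log10 q 3.93. The shared peak of MYBL2 rested on 32 and 28 fragments (27.1 and 24.3 after scaling to the control) and on backgrounds of 8 and 5.86. The replicate 2 background was the highest of any member peak. RBL1 and MYBL2 are both on chromosome 20, where 44.9% of protein-coding genes had a shared peak, against 20.5% to 29.2% on the other chromosomes of the members. The part of this in their calls was not tested.

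The strength of member peaks relative to their library differed between the lists, below its median in replicate 2 for most peaks and above it in replicate 3. In replicate 2 fold ran from 2.81 to 4.27 with a median of 3.28, against 3.76 over that library, and 3 of the 9 peaks were above the library's median. In replicate 3 fold ran from 3.15 to 5.58 with a median of 4.29, against 3.78, and 7 of 10 were above it. By −log10 q, 1 of 9 peaks in replicate 2 and 8 of 10 in replicate 3 exceeded the medians of 3.82 in each library. At −log10 q of at least 5 stood 0 of the 9 in replicate 2 and 5 of the 10 in replicate 3, against 29.7% and 28.01% of all peaks. The genes so marked in replicate 3 were LIN37, LIN54, RBBP4 and RB1, and no shared member peak passed in both libraries.

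**Figure D2:**
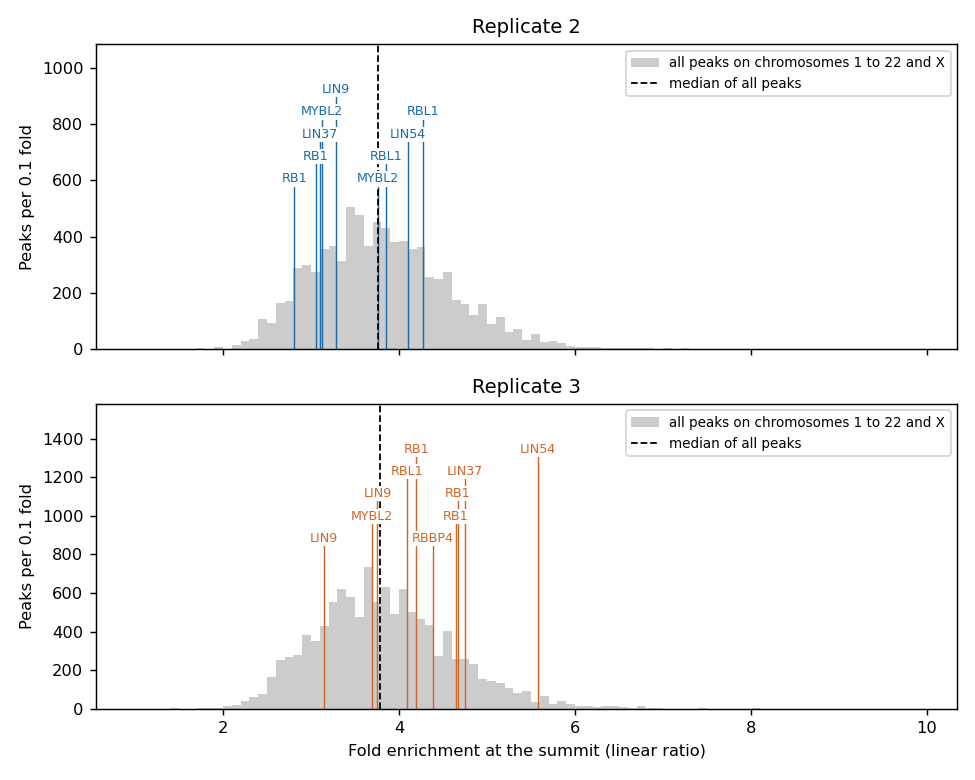
Fold enrichment (linear ratio) of each member peak, drawn as a labelled line, over the histogram of all peaks on chromosomes 1 to 22 and X in replicate 2 (upper panel) and replicate 3 (lower panel), with the median dashed. Member peaks lie between 2.81 and 4.27 in replicate 2 and between 3.15 and 5.58 in replicate 3, within the bulk of each list except LIN54 in replicate 3.

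Fold and −log10 p together fix the whole number of fragments at each summit, and these numbers were recovered for every peak. Member peaks held 19 to 32 fragments in replicate 2 and 19 to 31 in replicate 3, against library medians of 26 and 24.5. At all 5 shared loci fold was higher in replicate 3, and the rebuilt background was lower there. Over the 5357 shared loci fold was higher in replicate 3 at 53.8%, and the background was lower at 66.3%.

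No difference in fragment counts between the libraries was detected at a member locus. The ratio of replicate 2 to replicate 3, corrected for depth, was 1.01 at LIN9 (30 and 29 fragments, exact 95% interval 0.586 to 1.74) and 1.12 at MYBL2 (32 and 28, interval 0.651 to 1.92). It was 0.742 at LIN54 (19 and 25, interval 0.386 to 1.403), 0.808 at RB1 (24 and 29, interval 0.450 to 1.44) and 0.976 at RBL1 (19 and 19, interval 0.489 to 1.95). An exact binomial test (two-sided, Benjamini-Hochberg over all shared loci) gave adjusted p = 1 at each, with unadjusted p of at least 0.367. It called 0 of 5357 loci (0%), and 9 (0.168%) had unadjusted p under 0.05. The test compares 2 libraries at loci both had called, each at its own strongest peak. A locus with few fragments in 1 library would not have entered, so the test could call little and does not measure how alike the libraries are. Its intervals cover counting error only, and at this depth they span more than a 2-fold range at every member locus.

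**Figure D3:**
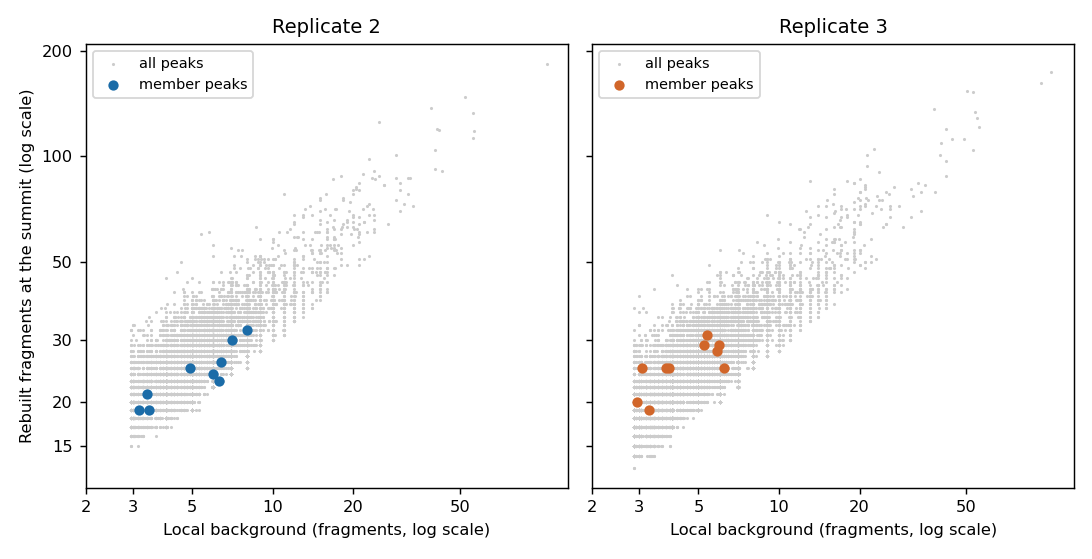
Rebuilt fragments at the summit, before scaling, against local background in fragments on the scale of the control, both on log axes. All peaks on chromosomes 1 to 22 and X are grey and member peaks coloured, for replicate 2 (left) and replicate 3 (right). Member peaks lie at 19 to 32 fragments in replicate 2 and 19 to 31 in replicate 3 and at backgrounds of 3.18 to 8 and of 2.94 to 6.22, apart from the few peaks of each list with far higher counts.

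The summits of the 2 libraries lay 91 to 199 bp apart at the member loci. The distance was 91 bp at RB1, 117 at LIN54, 120 at MYBL2, 151 at LIN9 and 199 at RBL1, against a median of 92 bp over all shared loci (quartiles 36 and 178). Summits within 100 bp were found at 1 of the 5 member loci, against 52.8% of all shared loci.

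The peaks nearest to the 5 kb limit show what the limit decides. Just inside it were the LIN37 peaks at 2446 and 3676 bp past the gene. Just outside were those 7357 bp (replicate 2, fold 3.86) and 7225 bp (replicate 3, fold 3.93) past LIN9 at MIXL1, and 1 of replicate 3 at 9487 bp before MYBL2 (fold 2.998).

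The wider pathway was followed in 5 lists of 83 genes, all of which matched. The counts of each list stand beside the 25.5% of all protein-coding genes with a shared peak, and none was tested. Of 10 E2F and DP genes, the DNA-binding partners of the pocket proteins, 6 had a shared peak. Folds given here are those of the shared pair with the highest lower fold. TFDP1, which encodes the DP1 subunit, had fold 4.95 in replicate 2 and 4.59 in replicate 3. The activator E2F1 had 4.02 and 3.88, with summits 11934 bp and 12015 bp from its 5′ end and so past its 3′ end, and its other shared pair lay within 1 kb of its 5′ end. The atypical repressors E2F7 (3.75 and 4.49) and E2F8 (4.27 and 3.74) followed.

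Of 14 kinases, cyclins and inhibitors that assemble or dissolve the complexes, 8 had a shared peak. Cyclin A2 (CCNA2) had fold 5.40 and 4.15 at its start. Cyclin D1 (CCND1), which opens the pocket proteins through CDK4 and CDK6, had 4.02 and 3.97, with 9 peaks in each library. Cyclin E1 (CCNE1) had 3.92 and 5.47, and the CDK inhibitor p27 (CDKN1B) had 3.88 and 4.74 at a pair past its 3′ end, and another of its 3 shared pairs lay within 1 kb of its 5′ end. DYRK1A, the LIN52 kinase, also had one (3.56 and 4.21).

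Of 11 other partners of MuvB and the pocket proteins 7 had a shared peak, among them the histone deacetylase HDAC1 (5.26 and 4.40, past its 3′ end) and the corepressor SIN3A (4.34 and 4.96). MYB had 3.84 and 5.00, with summits 1363 bp and 1144 bp inside its 5′ end, and MYBL1 had 3.70 and 4.17. Together with MYBL2 all 3 genes of the MYB family had a shared peak, beside 25.5% of all protein-coding genes, and this count was not tested.

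Genes that the complexes are known to regulate were followed in another 2 lists. Of 28 late cell cycle targets 8 had one (28.6%), led by KIF23, a central spindle kinesin (4.69 and 4.51), and CDC20, an activator of the anaphase-promoting complex (4.68 and 4.36). The CDC20 summits were 9192 bp and 9126 bp from its 5′ end and past its 3′ end, in a gene of 4223 bp. They lay near the edge of the 5 kb margin, and no shared peak was within 1 kb of the 5′ end. The phosphatase gene CDC25B had 4.21 and 3.83 and PRC1, a bundler of spindle microtubules, had 4.82 and 3.62. Neither library had a peak inside or within 5 kb of CCNB2, CDK1, PLK1, AURKA, AURKB, BUB1B, CENPE, TOP2A, BIRC5, KIF20A, ECT2 or HMMR. Of 20 early targets 6 had a shared peak (30%), and the highest were CDC25A (4.09 and 4.11), CHAF1A (4.38 and 3.85), TYMS (3.69 and 3.25) and PCNA (3.44 and 3.01). Beside the 25.5% of all protein-coding genes, the target lists stood near the background, and the member and partner lists above it by count alone.

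**Figure D4:**
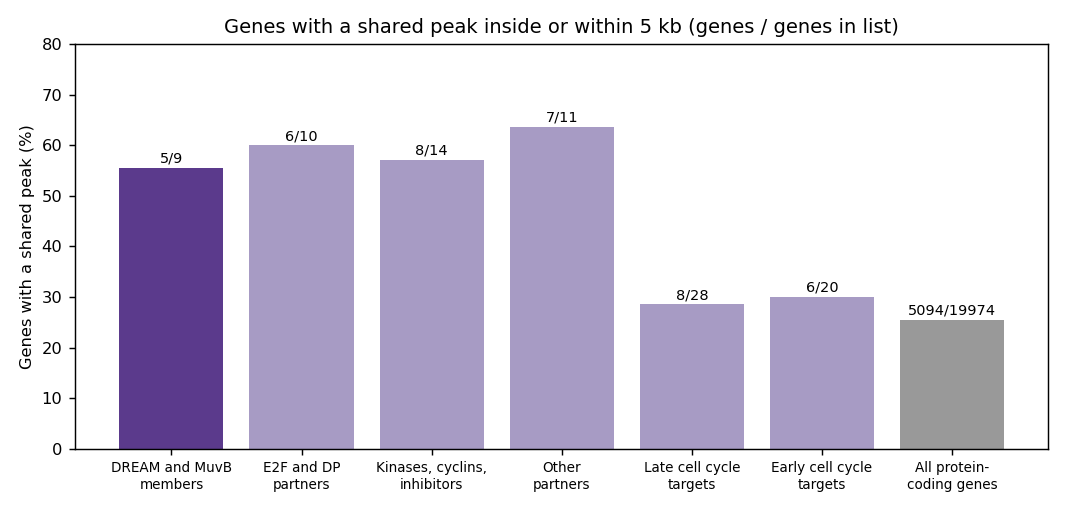
Percent of genes with a shared peak inside or within 5 kb, for the 9 members, the 5 pathway lists and all protein-coding genes, with genes over genes in the list above each bar. The members stand at 55.6% and all protein-coding genes at 25.5%; no test was run on these shares.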

How the data were processed

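ChIP-seq peaks of 2 anti-FOXM1 libraries of Huh7 cells were used as deposited; the input library gave no values of its own. Tools named per the submitters' processing notes were MACS2 2.2.7.1, BWA and CASAVA 1.4, with no role or order, on build GRCh38. For read filters and duplicate reads the sources used here give nothing. The deposited lists, 1 per library, give each peak a linear fold ratio with a pseudocount of 1, a −log10 p and a −log10 q, by the layout of the format. The deposited score, a truncated multiple of −log10 q, was not used. The deposited summit offset, another kind of value, placed the summit, and the deposited summit files gave the same positions and −log10 q for all 8271 and 11502 peaks.

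Fragment counts were rebuilt as the whole number whose scaled value reproduced both fold and the Poisson −log10 p, within 0.001 for 100% of peaks. The scales between ChIP and the control, taken to be the input, were 0.848 and 0.869. Fragment counts are given before this scaling unless stated, and backgrounds on the scale of the control. On 1000 simulated peaks per library 100% had the exact count, and with shuffled p 1.40% and 1.90% still found a fit. Read totals were not used here.

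Gene positions came from RefSeq GRCh38.p14 and strand from its promoter table, for 15813 of 19974 protein-coding genes. The 5′ end of a gene is the outer end of its gene record on its strand, which for LIN54 and RB1 is not a listed start. Coordinates are 1-based. The 9 members, the 5 pathway lists, the motifs and the tests were chosen with earlier results of these data known. The text names every member, and of each list up to 4 genes with a shared peak of highest lower fold in the 2 libraries. DYRK1A and the late targets without a peak were named outside this rule, after their values were seen. Shared loci merged overlapping peaks, with the peak of highest fold standing for each library. Alternatives were windows, a −log10 q minimum, definitions of sharing, each library alone and other scales. The work used SciPy 1.17.1, statsmodels 0.14.6, pandas 2.3.3, matplotlib 3.10.9, numpy 2.4.6 and Python 3.11.15.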

Additional observations from a re-analysis of the deposited data

How the results depend on the processing

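The count of members with a shared peak was 5 of 9, against 25.5% of all protein-coding genes, and it depended on what counts as shared. It was 2 (LIN9 and MYBL2, against 16.9%) with reciprocal overlap of at least 50%, and 1 (RB1, against 15.6%) with summits within 100 bp. Inside the gene only it was 3 (LIN9, LIN54 and RBL1, against 16.1%), since replicate 2 summits at RB1 and MYBL2 lay a few bases outside. It was 0, against 6.36%, with −log10 q of at least 5. The members thus did not stand above all genes with summits within 100 bp or with this minimum. With that minimum 0 members had a peak in replicate 2, against 12.5% of genes, and 4 in replicate 3, against 16.2%. With 1 library left out no peak can be shared, so the counts of 6 and 7 are those of replicate 2 alone and replicate 3 alone. They do not check the shared count. The shared count was 5 within 10 kb (against 27.9%) or with peak midpoints (against 25.5%). It was 4 within 1 kb of either end (against 18.9%) or of the 5′ end (against 18.4%), the last chosen after seeing the data.

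The share of protein-coding genes with a shared peak was 25.5%, against 6.36% with −log10 q of at least 5, 16.1% inside genes, 27.9% within 10 kb, 18.9% within 1 kb of either end, 18.4% within 1 kb of the 5′ end (genes with a known strand), 16.9% with reciprocal overlap and 15.6% with summits within 100 bp. With a library left out, 33.3% (replicate 2 alone) and 41.3% (replicate 3 alone) of genes had a peak, shared or not. These changes follow from fewer or more peaks, positions or pairs being counted. For the fragment ratios, the peak of highest −log10 q was also that of highest fold at all 5 member loci, so that alternative changed nothing, and with adjusted p of 1 at each (exact binomial test) neither alternative says anything on stability. No paired analysis was possible because both ChIP libraries form 1 group. A depth of 19 to 32 fragments per member peak limits the detection of weak peaks.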
